A study of Homo sapiens with 12 samples.

Results

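The 9 Kruppel-like factor genes described here are KLF2, KLF3, KLF4, KLF6, KLF7, KLF9, KLF10, KLF11 and KLF13, out of 19974 protein-coding genes of chromosomes 1 to 22 and X. They were chosen by name, and each was given a window that ran from 25 kb before to 25 kb after its RefSeq span on hg38. The windows held 39 to 45 of the 41164 to 56421 H3K27ac peaks of a library. H3K27ac, acetylation of histone H3 at lysine 27, is found on nucleosomes of promoters and enhancers in use. It was mapped by CUT&RUN, in which an antibody guides a nuclease to cut out the DNA around a mark, in RPMI 8226, an established human multiple myeloma cell line. The 4 groups, with 3 libraries each, were CEBPB knockout (KO) cells given 10 µM dexamethasone for 2 h, KO cells given DMSO, scramble control (SCR) cells given the same dexamethasone treatment, and SCR cells given DMSO. CEBPB encodes the transcription factor C/EBP beta, and dexamethasone is a synthetic glucocorticoid. Each assay used 100000 cells. The labels did not say whether the KO cells were a clone or a pool, or whether replicate libraries came from cultures grown apart, so p-values measure the spread between libraries, which may be technical.

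Kruppel-like factors are transcription factors with zinc fingers near the C terminus that bind GC-rich and CACCC sequences. KLF2, KLF4, KLF6 and KLF7 are mainly described as activators, KLF3 as a repressor that recruits CtBP proteins, and KLF9, KLF10, KLF11 and KLF13 as factors that bind the SIN3 corepressor. KLF9 is a well-described direct target of the glucocorticoid receptor, and KLF2 maintains quiescence and homing in lymphocytes.

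The promoters in the RefSeq table (GRCh38.p14) are shown for KLF2, KLF4, KLF6, KLF7 and KLF9, because the peaks at these starts took different forms: a broad peak at KLF2 and KLF6, almost none at KLF4, an edge at KLF7 that differed between genotypes, and a gap at KLF9. Each line gives the 250 bases before the start, 5′ to 3′ on the gene's strand. These lie at chr19:16324576-16324825 (plus strand) for KLF2, chr9:107489770-107490019 (minus) for KLF4, chr10:3785210-3785459 (minus) for KLF6, chr2:207167247-207167496 (minus) for the outermost listed start of KLF7 and chr9:70414658-70414907 (minus) for KLF9. Capitals mark matches, on either strand, to the GC box GGGCGG, the CACCC box CACCC, the glucocorticoid response element (half-sites GNACA and TGTNC with any 3 bases between them), the C/EBP site TTGCNNAA and the TATA box TATAAA.
KLF2: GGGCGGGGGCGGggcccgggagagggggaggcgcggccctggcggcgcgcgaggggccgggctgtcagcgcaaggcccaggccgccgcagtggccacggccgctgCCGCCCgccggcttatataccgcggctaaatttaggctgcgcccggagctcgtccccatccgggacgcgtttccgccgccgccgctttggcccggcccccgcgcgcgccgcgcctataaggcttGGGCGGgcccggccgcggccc
KLF4: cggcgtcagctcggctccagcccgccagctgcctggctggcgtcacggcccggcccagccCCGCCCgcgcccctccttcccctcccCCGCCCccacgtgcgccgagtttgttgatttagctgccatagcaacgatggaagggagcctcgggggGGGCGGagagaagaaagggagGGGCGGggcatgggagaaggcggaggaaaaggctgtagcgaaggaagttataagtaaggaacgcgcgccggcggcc
KLF6: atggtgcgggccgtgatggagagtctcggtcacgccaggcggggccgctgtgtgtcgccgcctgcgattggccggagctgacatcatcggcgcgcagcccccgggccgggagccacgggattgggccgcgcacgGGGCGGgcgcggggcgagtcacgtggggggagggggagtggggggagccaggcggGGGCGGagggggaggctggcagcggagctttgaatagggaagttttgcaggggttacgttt
KLF7: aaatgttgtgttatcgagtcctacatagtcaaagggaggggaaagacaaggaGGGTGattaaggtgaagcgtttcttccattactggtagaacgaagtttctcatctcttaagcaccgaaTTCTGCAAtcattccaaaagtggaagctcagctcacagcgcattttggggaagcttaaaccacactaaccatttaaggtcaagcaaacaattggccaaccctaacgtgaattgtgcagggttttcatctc
KLF9: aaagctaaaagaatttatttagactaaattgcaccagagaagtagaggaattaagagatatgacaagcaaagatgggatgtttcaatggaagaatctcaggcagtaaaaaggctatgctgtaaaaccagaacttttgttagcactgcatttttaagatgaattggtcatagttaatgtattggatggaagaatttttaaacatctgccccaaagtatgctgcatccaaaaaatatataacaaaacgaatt
KLF2 and KLF4 each held 4 GC boxes and KLF6 held 2, a motif found in 42.6% of 35116 RefSeq promoters, and 2 of the KLF2 matches adjoin. The KLF7 sequence held 1 C/EBP match, 130 to 123 bases before its start, a motif in 9.05% of promoters, and 1 CACCC match, which 54.7% of promoters held. No match to any of the 5 motifs was in the KLF9 sequence. The glucocorticoid response element was in 0.327% of all promoters and the TATA box in 10.7%, and neither was before any of the 11 listed starts of the 7 members in the table. The KLF9 promoter had a GC content of 32.4% and 1 CpG, against medians of 58% and 11 CpG over all promoters. The KLF2 promoter had a GC content of 80% and 41 CpG. A match is a description of letters and not evidence of binding.

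Peak coverage of the windows spanned a wide range among the 9 genes. In bulk libraries, more cells with a mark and more mark per cell cannot be told apart. KLF13 had the largest coverage, with a median of 22.8 kb (21.2 to 25.9 kb over the 12 libraries), which was above that of 99.5% of all coding genes. KLF7 had a median of 12.7 kb (10.3 to 14.8 kb), and KLF13 and KLF7 did not overlap in any library. Both have long spans, of 108831 and 99715 bp, so their windows were longer than the others. As a share of the window, KLF13 (14.4% covered) and KLF6 (14.0%) stood close together, and KLF7 (8.48%) stood near KLF9 (8.54%). KLF6 had a median of 8.28 kb (6.79 to 9.92 kb) and KLF9 of 6.84 kb (5.64 to 8.32 kb), and these ranges overlapped. KLF3 (5.03 kb), KLF11 (4.40 kb), KLF2 (4.28 kb) and KLF10 (4.21 kb) had overlapping ranges between 2.66 and 7.24 kb.

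KLF4, known as a pluripotency and differentiation factor, had almost no peak. Its window was at 0 kb in 11 of the 12 libraries and held 1 peak of 290 bp at the start, with a fold enrichment of 3.39, in SCR DMSO library 2. KLF4 was therefore not tested, since a gene had to be covered in at least 3 libraries, and 8 of the 9 members were. Fold enrichment is the value that the authors' peak caller gave each peak over its background.

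**Figure D1:**
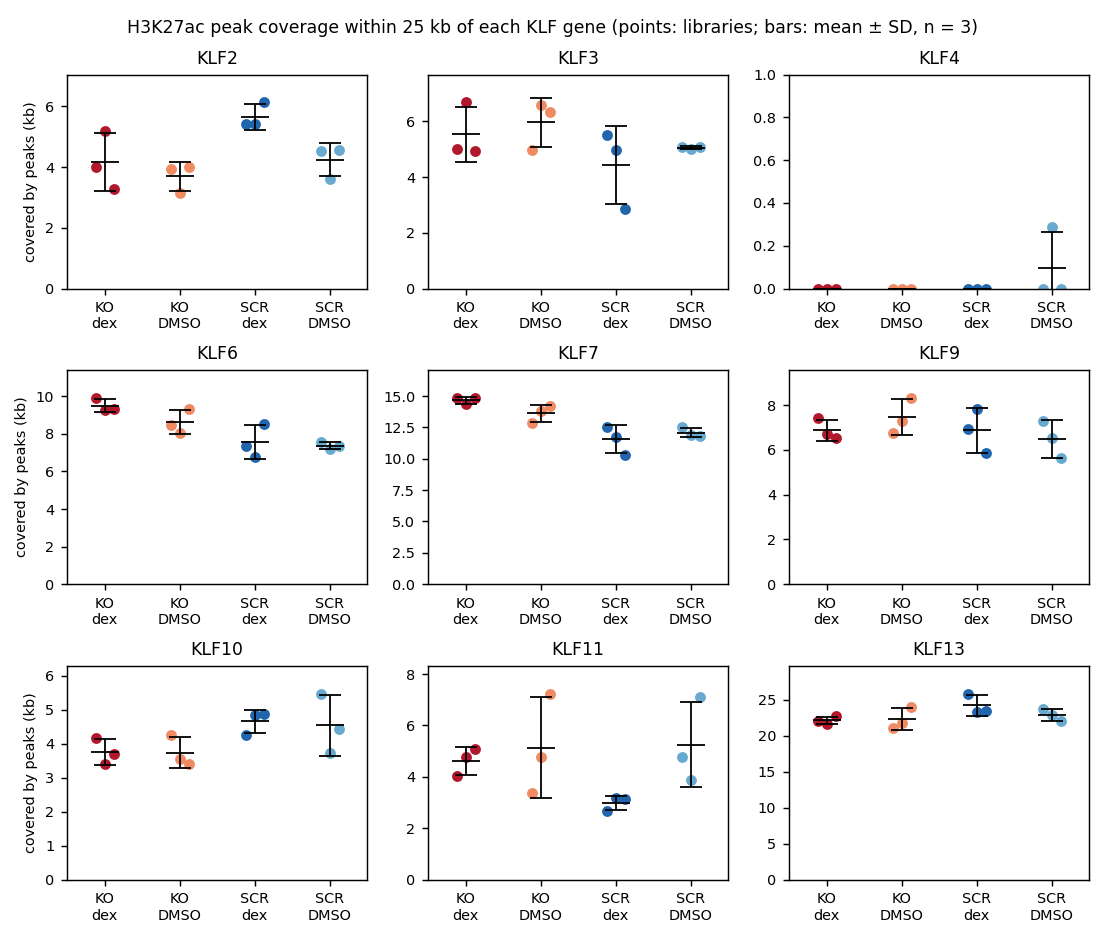
Base pairs covered by H3K27ac peaks (kb, vertical axis) in the window of each KLF gene, for KO and SCR cells given dexamethasone or DMSO. Points are libraries and bars the mean ± SD of 3 libraries. The 6 KO libraries of KLF7 lie between 12.8 and 14.8 kb, above the 6 SCR libraries at 10.3 to 12.5 kb, and KLF4 is at 0 in 11 libraries.

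The windows held 46 consensus regions, defined as runs of at least 200 bp covered by peaks in at least 3 of the 12 libraries, out of 57851 genome-wide. KLF13 had 13, KLF7 8, KLF11 7, KLF6 5, KLF9 4, and KLF2, KLF3 and KLF10 3 each, while KLF4 had 0. Peaks covered at least 50% of the bases of a region in all 12 libraries for 24 of the 46 regions. Of the 46, 20 lay inside a gene's span, 8 overlapped an end of it and 18 lay outside. The level of a region is the mean fold enrichment over its bases, with 1 where no peak was called. A region covered in part therefore has a lower level than its peak. Coverage under 50% does not mean that no peak was called.

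KLF11 carried the strongest peaks of the 9 genes. Its start peak had a fold enrichment of 6.31 to 7.35 and a width of 1140 to 1265 bp in all 12 libraries. A second narrow region 7.41 kb upstream of it (chr2:10035818-10037012) was at 5.46 to 6.64. The start peaks of 4 other members were wider and lower, at 2.82 to 4.42 for KLF7, 3.17 to 4.02 for KLF6, 2.24 to 2.85 for KLF2 and 2.36 to 2.68 for KLF13. The KLF13 start peak was 3318 to 4430 bp wide.

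The KLF9 start lay in no peak in any of the 12 libraries. The KLF4 start lay in none in 11 libraries, and the starts of KLF3 and KLF10 were not assessed. The nearest peak began 0.511 to 0.568 kb inside the gene, and the near edge of the next upstream peak lay 3.58 to 3.63 kb before the start. These peaks formed a region inside the gene (chr9:70411189-70414129, fold enrichment 2.60 to 3.20) and an upstream region (chr9:70418250-70421321, fold enrichment 3.14 to 3.33). The upstream region, centred 5.13 kb before the start and over the span of the divergent transcript gene KLF9-DT, varied little across the 4 groups. The AT-rich promoter printed above lies in the gap between these peaks.

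**Figure D2:**
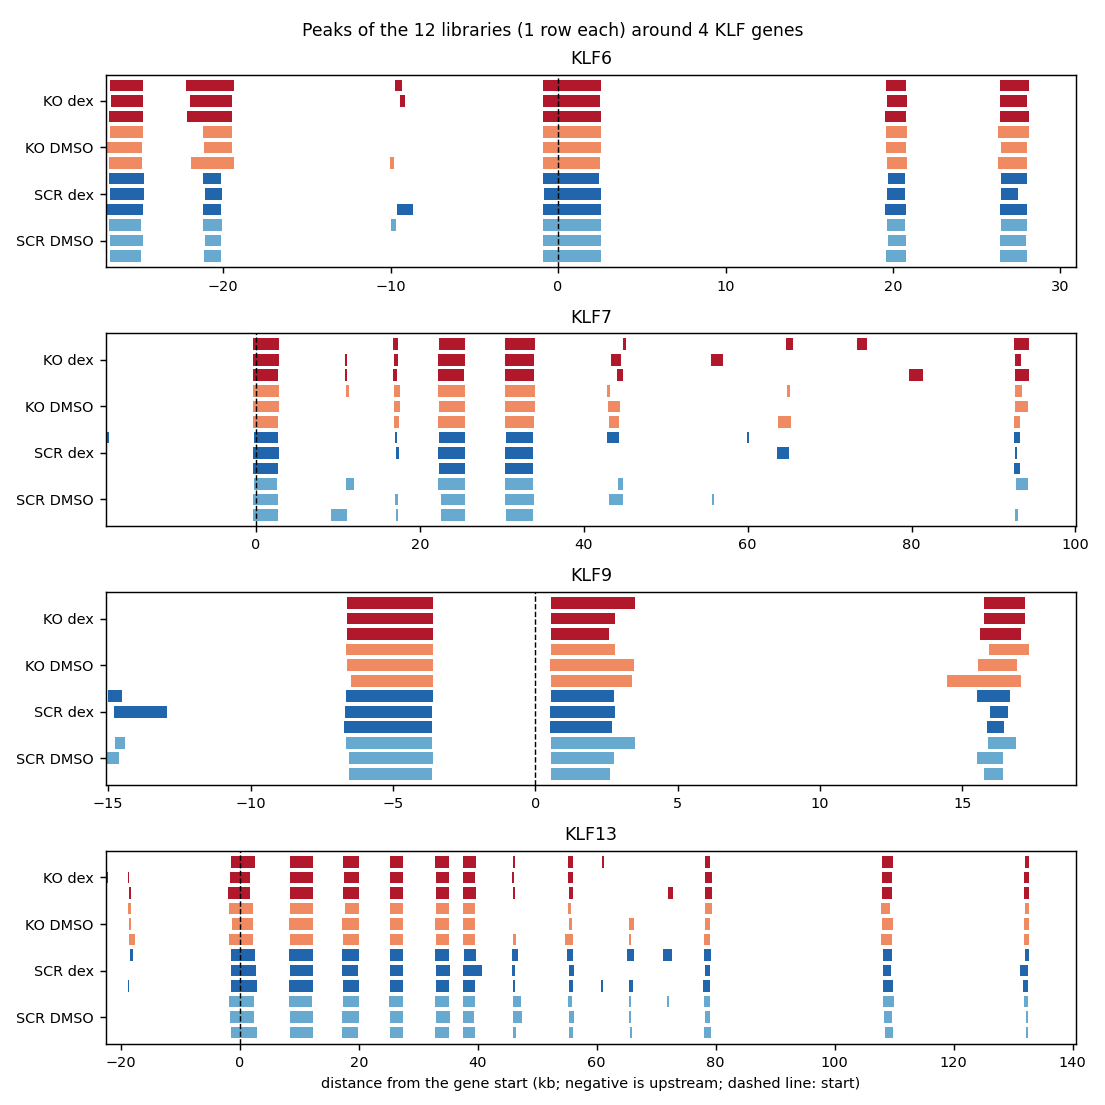
Peaks in each of the 12 libraries, 1 row per library and coloured by group, by distance in kb from the start of KLF6, KLF7, KLF9 and KLF13 (horizontal axis, negative is upstream). The gap of the KLF9 start lies between peaks that end 3.58 to 3.63 kb upstream and begin 0.511 to 0.568 kb downstream in all 12 libraries, and KLF13 has a row of peaks through its gene.

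Dexamethasone gave no called difference in the coverage of a KLF window. In SCR cells, 0 of 8 tested members passed an adjusted p of 0.05 in limma, against 0.0233% of 17155 genes. Unadjusted, 3 of 8 were under 0.05 (KLF2 and KLF13 higher, KLF11 lower), against 7.67% of all genes. In KO cells 0 of 8 passed, against 0.0175% of genes, and 2 of 8 had an unadjusted p under 0.05, against 6.36% of all genes. Averaged over genotypes 0 of 8 passed, against 0.0408% of genes, with 3 of 8 under 0.05 unadjusted, against 8.69% of all genes. The median log2 difference of the 8 members was 0.15 in SCR cells and 0.09 in KO cells, beside 0.03 and 0.02 over all tested genes. These comparisons used log2(bp covered + 500) values, quantile-normalised over the 12 libraries. The added 500 bp shrinks the log2 differences of genes with little coverage. Normalization also shifts values, so a log2 difference can depart in size or sign from the coverage in kb. KLF13 in KO cells averaged 22.2 kb with dexamethasone and 22.4 kb with DMSO, yet had a log2 difference of 0.10.

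KLF2 had the largest positive dexamethasone difference of the tested members in SCR cells. Its window had 5.42, 5.41 and 6.13 kb in SCR cells given dexamethasone, against 4.54, 3.62 and 4.58 kb in SCR cells given DMSO. The groups did not overlap, as held for 11% of all genes in either direction. The log2 difference was 0.51 ± 0.16 (SE), with an adjusted p of 0.431 in limma. In KO cells the KLF2 window had 4.01, 5.19 and 3.29 kb with dexamethasone, against 3.96, 3.15 and 4.01 kb with DMSO, and these overlapped.

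The KLF2 window holds a region 14.0 kb downstream of the start (chr19:16338145-16339415). Its mean fold enrichment was 2.61, 3.86 and 3.52 in SCR cells with dexamethasone, against 1.48, 1.61 and 1.57 in SCR cells with DMSO (log2 difference 1.28 ± 0.38, adjusted p = 0.265 in limma). In KO cells it was 1.85, 2.62 and 1.00 with dexamethasone, against 1.00, 1.00 and 2.23 with DMSO. The SCR groups did not overlap, with dexamethasone higher as in 4.76% of all regions, and the KO groups did.

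Of the SIN3-binding members, KLF9 had no called difference with dexamethasone. Its window had 6.93, 7.83 and 5.85 kb in SCR cells with dexamethasone, against 7.30, 6.51 and 5.63 kb with DMSO (log2 difference 0.19 ± 0.14, adjusted p = 0.812 in limma). In KO cells it had 7.41, 6.71 and 6.51 kb with dexamethasone, against 6.74, 7.30 and 8.32 kb with DMSO (0.00 ± 0.14, adjusted p = 1). The groups overlapped in both genotypes.

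KLF11 covered 2.66, 3.17 and 3.13 kb in SCR cells with dexamethasone, against 4.77, 3.90 and 7.10 kb with DMSO. These SCR groups did not overlap, as held for 11% of all genes in either direction, but the log2 difference of -0.55 ± 0.25 had an adjusted p of 0.643 in limma. It was 0.02 when peaks were limited to those with a −log10 q of at least 2, and 0.15 when all libraries were set to the same covered length. KLF13 had 25.9, 23.4 and 23.5 kb in SCR cells with dexamethasone, against 23.8, 22.9 and 22.1 kb with DMSO (0.21 ± 0.08, adjusted p = 0.584). In KO cells the groups of both genes overlapped.

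**Figure D3:**
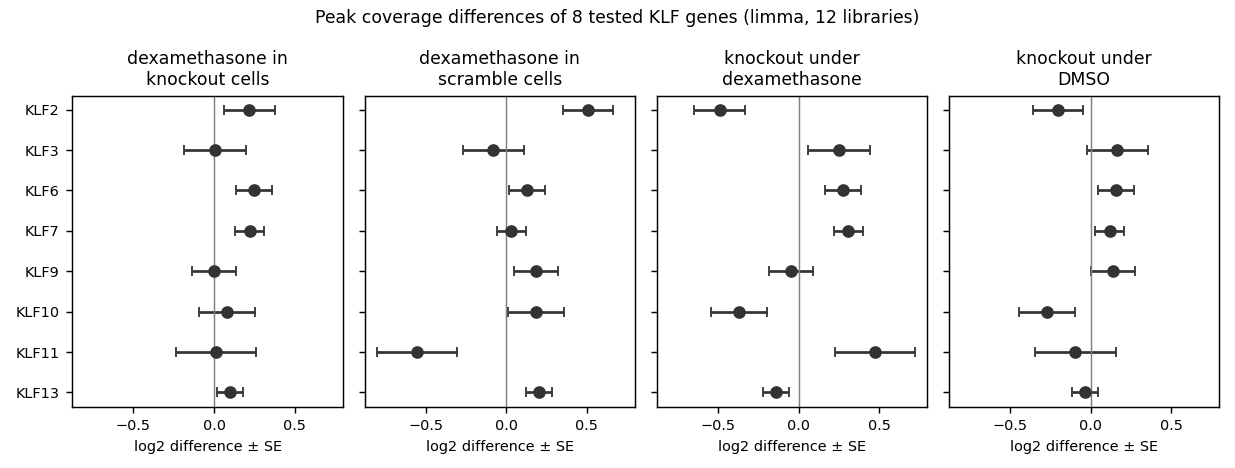
Log2 differences in peak coverage (horizontal axis, ± SE, limma fit over 12 libraries) of the 8 tested KLF genes for dexamethasone in KO and SCR cells and for the knockout under dexamethasone and DMSO. KLF2 lies at 0.51 for dexamethasone in SCR cells and at -0.49 for the knockout under dexamethasone, and none of the plotted differences passed an adjusted p of 0.05.

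Among the 46 regions, dexamethasone gave 0 calls in SCR cells (against 0.882% of all regions), 0 in KO cells (0.614%) and 0 averaged over genotypes (1.03%). By limma, 5, 1 and 7 regions had an unadjusted p under 0.05 in these comparisons, beside 7.76%, 7.62% and 9.70% of all regions. The region with the smallest p in the averaged comparison was a 444 bp stretch inside KLF3 (chr4:38667013-38667456). It was at 1.95, 2.03 and 2.12 in KO cells with dexamethasone, against 1.57, 1.59 and 1.00 in KO cells with DMSO. In SCR cells it was at 1.95, 1.82 and 1.68 with dexamethasone, against 1.00, 1.00 and 1.00 with DMSO. All 6 dexamethasone libraries were above all 6 DMSO libraries, which 0.28% of all regions showed in this direction. The averaged log2 difference was 0.77 ± 0.18 with an adjusted p of 0.0875, and it passed (adjusted p = 0.0349) when covered base pairs replaced fold enrichment.

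A region 23.1 kb beyond the 3′ end of KLF13 (chr15:31458733-31459581) had the smallest p for dexamethasone in SCR cells. Its fold enrichment was 4.64, 3.55 and 3.41 in SCR cells with dexamethasone, against 2.97, 2.02 and 1.73 with DMSO (log2 difference 0.89 ± 0.22, adjusted p = 0.148 in limma). When 1 library at a time was left out the adjusted p was between 0.0175 and 0.363. The difference passed in 1 of 12 such fits, without SCR DMSO library 1, where it was 1.17. In KO cells the region was at 4.25, 4.99 and 5.36 with dexamethasone, against 3.46, 4.14 and 4.76 with DMSO, and those groups overlapped.

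No KLF member or region had a called difference in its dexamethasone response between KO and SCR cells. By limma, 0 of 8 windows passed, against 0.0117% of genes, and 0 of 46 regions, against 0.0156% of regions, with 0 members and 0 regions at an unadjusted p under 0.05. The difference was -0.29 ± 0.22 for KLF2, 0.57 ± 0.35 for KLF11 and -0.18 ± 0.19 for KLF9, on the log2 scale. A p that misses the threshold does not show that the responses were alike.

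The knockout was associated with wider coverage of KLF7 when both treatments were averaged. KLF7 had 14.8, 14.3 and 14.8 kb in KO cells with dexamethasone and 12.8, 13.8 and 14.2 kb in KO cells with DMSO. It had 12.5, 11.8 and 10.3 kb in SCR cells with dexamethasone and 12.5, 11.9 and 11.8 kb in SCR cells with DMSO. All 6 KO libraries were above all 6 SCR libraries, as held for 4.83% of genes in this direction, although the normalised values overlapped. The log2 difference was 0.21 ± 0.06 with an adjusted p of 0.0411 in limma (14.1 ± 0.75 kb in KO against 11.8 ± 0.80 kb in SCR, SD, n = 6 each). KLF7 was the only member called of 8, or 1 of 8, against 15.1% of all genes. When 1 library at a time was left out the adjusted p was between 0.0319 and 0.0980, and the call held in 2 of 12 such fits, without KO dexamethasone library 2 and without SCR dexamethasone library 2. The call also ended with windows of 5 kb (adjusted p = 0.0616) and 100 kb (0.0783), with equal covered length (0.116) and with coverage weighted by fold enrichment (0.0785).

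Within each treatment, 0 of 8 windows were called for the knockout. Under DMSO this stood against 7.32% of genes and under dexamethasone against 7.62%, with 0 and 3 members at an unadjusted p under 0.05 in limma, beside 19.9% and 20.2% of all genes. The KO and SCR libraries did not overlap for 6 of 8 members under dexamethasone, against 26.6% of genes, and for 2 of 8 under DMSO, against 22.2%. On the normalised values that were tested, 4 of 8 did not overlap under dexamethasone, since KLF6 and KLF10 then overlapped. The share of all genes on the normalised scale was not computed, so that count has no background beside it. On the coverage in kb under dexamethasone, KLF6, KLF7 and KLF11 were the members with all KO libraries above all SCR libraries, and KLF2, KLF10 and KLF13 those with all KO libraries below. The comparisons under dexamethasone and in SCR cells share the SCR dexamethasone libraries.

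KLF2 and KLF6, among the activators, had values near the threshold when averaged over treatments. KLF2 averaged 3.93 ± 0.72 kb in KO cells and 4.95 ± 0.88 kb in SCR cells (log2 difference -0.35 ± 0.11, adjusted p = 0.0580 in limma, SD, n = 6 each). With 1 library left out at a time its adjusted p was between 0.0399 and 0.133. It passed in 2 of 12 such fits, without KO dexamethasone library 2 (adjusted p = 0.0399) and without SCR dexamethasone library 1 (0.0436). KLF6 averaged 9.07 ± 0.67 kb in KO cells and 7.48 ± 0.59 kb in SCR cells (0.21 ± 0.08, adjusted p = 0.0942 in limma). With 1 library left out its adjusted p was between 0.0373 and 0.185, and it passed in 1 of 12 fits, without SCR dexamethasone library 3. It passed with coverage weighted by fold enrichment (0.0166), but its sign turned (-0.06) with windows of 5 kb, which leave out the distal regions. KLF10 averaged 3.74 ± 0.37 kb in KO cells and 4.60 ± 0.61 kb in SCR cells (-0.32 ± 0.12, adjusted p = 0.109 in limma). It passed in 0 of 12 fits with 1 library left out. With peaks of a −log10 q of at least 2 alone it passed (-0.35, adjusted p = 0.0027), as it did with equal covered length (-0.33, adjusted p = 0.0440).

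At the level of regions, 11 of the 46 were called for the knockout averaged over treatments, 8 higher and 3 lower. This is 23.9%, near the 22.8% of all regions called (11.5% higher and 11.3% lower). Under DMSO 7 were called (15.2%, against 13.1%), 5 higher (6.41% of all regions) and 2 lower (6.71%). Under dexamethasone 3 were called (6.52%, against 14.6%), all higher (7.22% of all regions). The called regions lay in the windows of KLF6, KLF7, KLF9, KLF10, KLF11 and KLF13.

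Inside KLF7, a region 15.6 kb upstream of the innermost listed start (chr2:207149387-207150077) had the largest rise of the 8 regions called higher. Its mean fold enrichment was 3.26, 2.53 and 2.53 in KO cells with dexamethasone and 3.05, 3.73 and 3.54 in KO cells with DMSO. In SCR cells it was 1.50, 1.69 and 1.00 with dexamethasone and 1.00, 1.71 and 1.65 with DMSO. The 6 KO libraries were all above the 6 SCR libraries, as in 5.55% of all regions. Peaks covered at least 50% of the region in 6 of 6 KO and 0 of 6 SCR libraries. Both ends of the region were ends of KO peaks, so this count partly follows from how the region was drawn and is no separate support. SCR libraries except dexamethasone library 3 and DMSO library 1 did have a peak there, over 37.5% to 46.5% of the region. Those peaks had a fold enrichment of 2.25 to 2.72, against 3.22 to 3.91 in KO libraries. The averaged log2 difference was 1.20 ± 0.21 (adjusted p = 0.0017 in limma), and it remained called in all 12 fits without 1 library.

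The KLF7 start peak also reached further upstream in KO cells. Its upstream edge lay 32 or 33 bp beyond the outermost listed start in the 6 KO libraries, and 15 to 105 bp short of it in the 6 SCR libraries. That start was therefore inside a peak in 6 of 6 KO and 0 of 6 SCR libraries. The KO edge fell inside the KLF7 sequence printed above. The whole peak was 2857 to 3195 bp wide. The edges were looked at after their values were seen and are given without a test. The share of other start peaks with such a difference was not computed, and what sets the edge was not tested. The peak's fold enrichment overlapped between genotypes, at 3.37 ± 0.16 and 3.59 ± 0.31 in KO cells with dexamethasone and DMSO and at 3.58 ± 0.10 and 3.87 ± 0.48 in SCR cells with dexamethasone and DMSO (SD, n = 3 each).

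KLF6, an early-response activator, had 3 called distal regions while its start peak stayed within 3.17 to 4.02. A region 20.7 kb upstream (chr10:3804657-3807200) was at 3.02, 3.12 and 2.94 in KO cells with dexamethasone and 2.66, 2.75 and 3.02 in KO cells with DMSO. In SCR cells it was at 1.95, 1.81 and 1.95 with dexamethasone and 2.30, 2.07 and 2.04 with DMSO. All KO libraries were above all SCR libraries, as in 5.55% of all regions (log2 difference 0.57 ± 0.11, adjusted p = 0.0033 in limma). Peaks covered at least 50% of the region in 6 of 6 KO and 0 of 6 SCR libraries. Here too both ends of the region were ends of KO peaks, so this count is no separate support. All 6 SCR libraries did have a peak there. The peaks overlapped in fold enrichment, at 2.99 to 3.63 in KO and 3.03 to 3.98 in SCR libraries. They covered 66.4% to 100% of the region in KO and 37.3% to 43.9% in SCR libraries, so the difference lay in covered length. A region 20.2 kb downstream of the start (chr10:3764377-3765650) averaged 4.45 ± 0.37 in KO and 3.26 ± 0.30 in SCR cells (0.47 ± 0.08, adjusted p = 0.0018, SD, n = 6 each). The region 25.8 kb upstream fell by 0.17 on the log2 scale (adjusted p = 0.0453), a call kept in 2 of 12 fits without 1 library.

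Among the SIN3-binding members, KLF9 had a called region inside the gene, 16.4 kb downstream of its start (chr9:70397458-70399139), with a higher level in KO cells. The mean fold enrichment of this region was 3.35, 3.78 and 3.55 in KO cells with dexamethasone and 3.16, 2.88 and 2.91 in KO cells with DMSO. In SCR cells it was 2.84, 1.95 and 2.44 with dexamethasone and 2.36, 2.32 and 1.72 with DMSO. The KO libraries were all above the SCR libraries, as in 5.55% of all regions (log2 difference 0.57 ± 0.12, adjusted p = 0.0055 in limma). Under DMSO alone the region was called too (adjusted p = 0.0359). That call held in 5 of 12 fits without 1 library, against 12 of 12 for the averaged call. The peaks there overlapped in fold enrichment, at 3.05 to 4.29 in KO and 2.87 to 5.29 in SCR libraries. They covered 75.3% to 92.9% of the region in KO and 33.7% to 70.0% in SCR libraries, so the difference lay in covered length. A short region 14.7 kb upstream of KLF9 (chr9:70429191-70429446) was at 1.00, no peak, in all 6 KO libraries. In SCR cells it was at 4.10, 3.54 and 1.00 with dexamethasone and at 2.96, 2.20 and 1.00 with DMSO (adjusted p = 0.0579, not called). It is named after its values were seen.

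KLF13, which regulates lymphocyte genes such as the chemokine CCL5, had 3 called regions. The region at the 3′ end of the gene (chr15:31434724-31436607) averaged 3.83 ± 0.19 in KO and 2.77 ± 0.22 in SCR cells (log2 difference 0.49 ± 0.08, adjusted p = 0.0009 in limma, SD, n = 6 each). All 6 KO libraries, at 3.61 to 4.06, were above all 6 SCR libraries, at 2.47 to 3.11, as in 5.55% of all regions. The region 23.1 kb beyond the gene averaged 4.49 ± 0.68 in KO and 3.05 ± 1.07 in SCR cells (0.68 ± 0.16, adjusted p = 0.0091). That region was called under DMSO (0.97, adjusted p = 0.0140 in limma) and not under dexamethasone. A region 46.3 kb inside the gene (chr15:31372669-31373673) fell, at 1.57 ± 0.50 in KO against 2.60 ± 0.50 in SCR cells (-0.86 ± 0.19, adjusted p = 0.0062). It was called under DMSO (-1.25, adjusted p = 0.0087) and not under dexamethasone (-0.47, adjusted p = 0.290), and the averaged call ended with regions from at least 6 libraries (0.119). Of the 13 KLF13 regions, 9 were covered to at least 50% in all 12 libraries, the region at the 3′ end included.

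KLF10, a TGF-beta-inducible factor, had called regions in opposite directions on either side of the gene. The region 0.743 kb outside one end (chr8:102647377-102648041) averaged 4.00 ± 0.61 in KO and 3.13 ± 0.38 in SCR cells (log2 difference 0.37 ± 0.10, adjusted p = 0.0174 in limma, SD, n = 6 each). The region 6.85 kb outside the other end (chr8:102662576-102663284) was at 2.32, 1.00 and 1.00 in KO cells with dexamethasone and 1.00, 1.00 and 1.00 in KO cells with DMSO. In SCR cells it was at 3.62, 2.69 and 1.67 with dexamethasone and 3.40, 2.78 and 3.15 with DMSO. It fell by 1.31 on the log2 scale (adjusted p = 0.0030), and 5 of the 6 KO libraries had no peak there. KLF11 rose at a region 33.8 kb downstream of its start (chr2:10077644-10078445), at 2.44 ± 0.41 in KO against 1.41 ± 0.48 in SCR cells (0.95 ± 0.24, adjusted p = 0.0139). That region lies in the span of CYS1, the only other coding gene in any of the 9 windows.

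The genes around KLF10 and KLF11 had mostly positive knockout differences. Within 5 Mb of KLF11 on the short arm of chromosome 2, 87.1% of 31 tested genes had a positive log2 difference for the knockout averaged over treatments, with a median of 0.32. Within 5 Mb of KLF10 on chromosome 8 the median of 42 genes was 0.18, and 71.4% were positive, while the KLF10 window itself was at -0.32. Over all tested genes the median was 0.00 and 49.9% were positive, and the median was between -0.09 and 0.04 around the other 7 members. The part of these neighbourhoods in the KLF10 and KLF11 values was not tested.

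**Figure D4:**
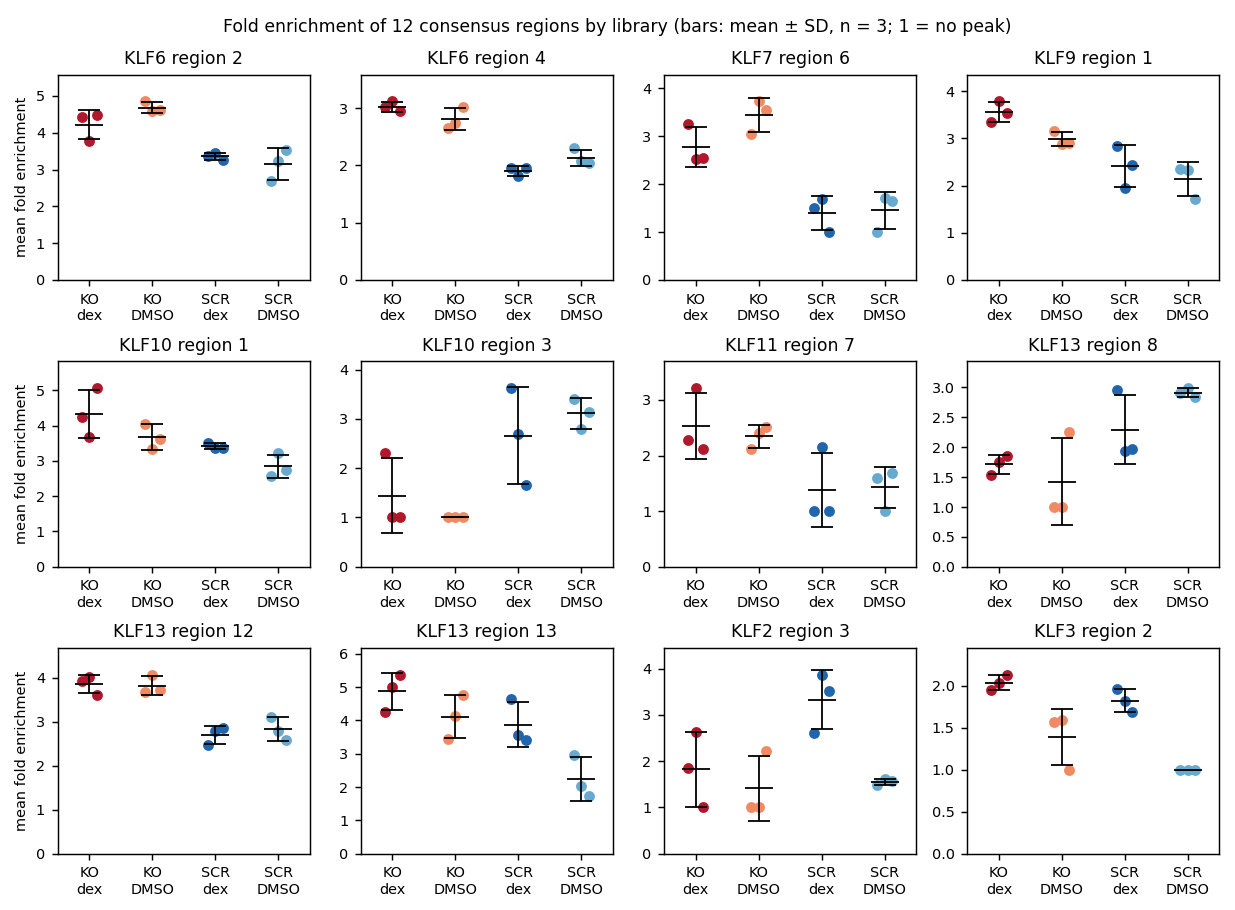
Mean fold enrichment (vertical axis, 1 means no peak) of 12 consensus regions near KLF genes in the 3 libraries of each group, with the mean ± SD. The 6 KO libraries lie above the 6 SCR libraries in KLF6 region 2, KLF6 region 4, KLF7 region 6, KLF9 region 1 and KLF13 region 12, and KLF3 region 2 has all 6 dexamethasone libraries above the 6 DMSO libraries.

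Several of these calls depended on the measure. With covered base pairs in place of fold enrichment, the averaged calls ended at KLF6 region 2 (adjusted p = 0.386), KLF6 region 5 (0.331), KLF10 region 1 (0.219), KLF13 region 12 (0.214) and KLF13 region 13 (0.115). With peaks of a −log10 q of at least 2 alone they ended at KLF6 region 2 (0.0896), KLF9 region 1 (0.148), KLF13 region 8 (0.250) and KLF13 region 12 (0.0665).

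**Figure D5:**
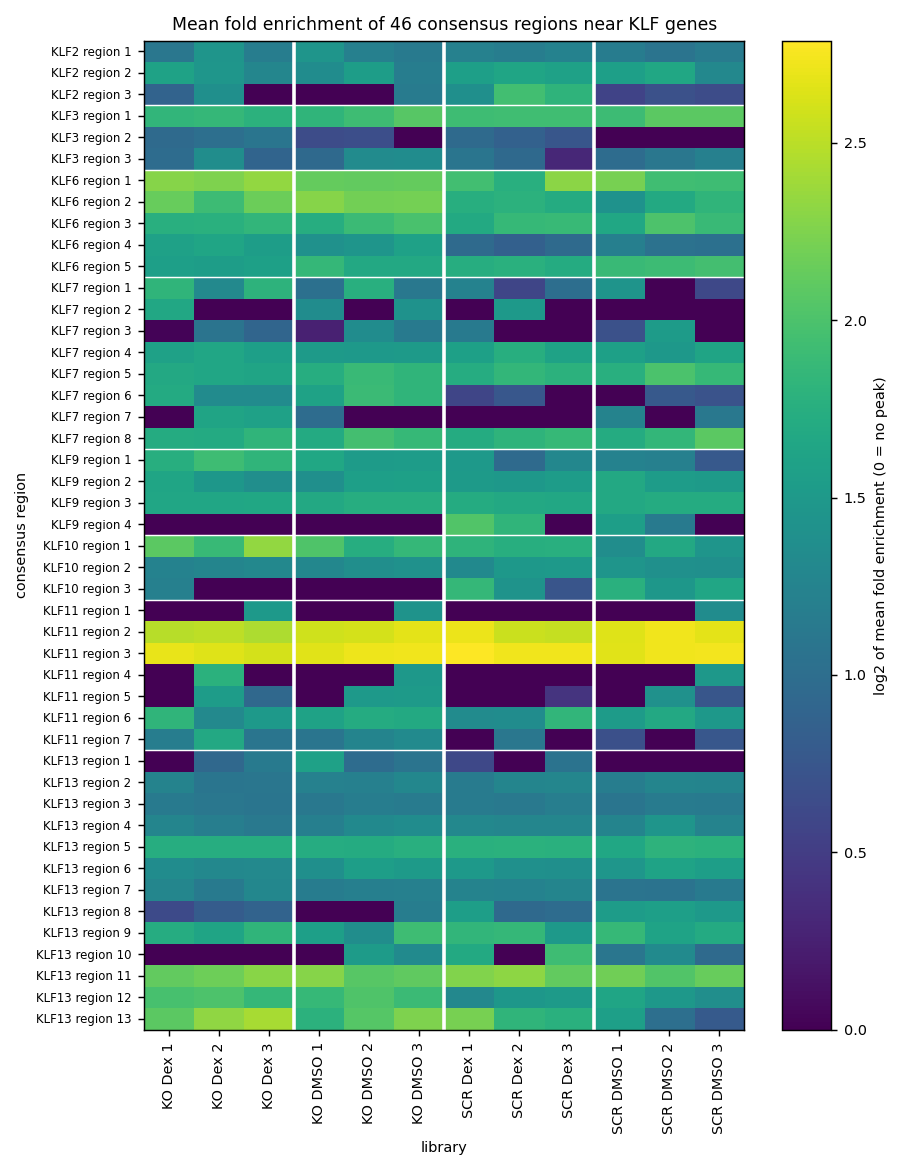
Log2 of the mean fold enrichment (colour, 0 means no peak) of the 46 consensus regions (rows, by gene) in the 12 libraries (columns, by group). The 2 brightest rows are the KLF11 start region and the region 7.41 kb upstream of it, and 24 of the 46 regions are covered to at least 50% in all 12 libraries.

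The rest of the KLF and SP family, 18 genes of which 15 were tested, showed few calls. For the knockout, KLF12, a repressor, was called lower under DMSO (3.54% of all genes), under dexamethasone (3.38%) and averaged (6.96%; log2 difference -0.58 ± 0.10, adjusted p = 0.0029 in limma). It averaged 2.64 ± 0.38 kb in KO and 4.01 ± 0.31 kb in SCR cells (SD, n = 6 each), and it was 1 of 15 called, against 15.1% of all genes. The median log2 difference of the 15 was -0.08. KLF14, KLF18 and SP5 were at 0 kb in all 12 libraries.

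Of 12 cofactors of KLF proteins, CTBP2, a corepressor of the CtBP family that KLF3 recruits, was the only gene called for the knockout averaged over treatments. It was at 0 kb in all 6 KO libraries and at 0.466 ± 0.099 kb in SCR cells (SD, n = 6; adjusted p = 0.0024 in limma), so it rests on short peaks. This is 1 of 12, against 15.1% of all genes called and 6.96% called lower. For dexamethasone, 0 of 12 cofactors and 0 of 15 other family members were called in SCR cells, KO cells or on average, with 0, 0 and 1 cofactors and 0, 1 and 1 family members at an unadjusted p under 0.05.

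Among 15 glucocorticoid-induced genes, ZBTB16, a zinc-finger repressor, was called higher with dexamethasone in both genotypes. It covered 12.1 ± 2.3 kb in SCR cells with dexamethasone, against 0.646 ± 0.648 kb with DMSO (adjusted p = 0.0017 in limma, SD, n = 3 each). In KO cells it covered 3.34 ± 0.65 kb with dexamethasone, against 0 kb in all 3 libraries with DMSO (adjusted p = 0.0232). The list's median log2 difference was 0.27 in SCR and 0.28 in KO cells, against 0.15 and 0.09 for the 8 KLF members. For the knockout under dexamethasone 2 of the 15 were called lower, against 3.38% of all genes called lower and 7.62% in either direction, and ZBTB16 was among them (adjusted p = 0.0100). TSC22D3, the gene of the leucine zipper protein GILZ, covered 11.5 ± 0.4 kb in SCR cells with dexamethasone, against 6.90 ± 0.49 kb with DMSO (adjusted p = 0.0693, not called). It was the other gene called lower for the knockout under dexamethasone, at 7.51 ± 0.67 kb in KO cells against those 11.5 kb in SCR cells (adjusted p = 0.0066).

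The window of CEBPB itself covered 4.60 ± 0.44 kb in KO and 5.03 ± 0.74 kb in SCR cells (SD, n = 6 each; adjusted p = 0.316 in limma). A histone mark around the gene does not measure its product and so does not check the knockout. NR3C1, the glucocorticoid receptor gene, covered 6.57 ± 0.63 kb in KO and 7.89 ± 2.03 kb in SCR cells (adjusted p = 0.138). All 8 plasma cell markers, among them SDC1, IRF4 and XBP1, were covered in all 12 libraries. Their summed coverage was 67.6 to 71.0 and 73.1 to 74.1 kb in KO cells with dexamethasone and DMSO, and 53.4 to 61.0 and 55.4 to 68.7 kb in SCR cells with dexamethasone and DMSO. Peaks also covered 3 of 4 mature B cell, 1 of 4 T cell, 4 of 4 myeloid and 3 of 4 stromal or epithelial markers in all 12 libraries, and COL1A2 was at 0. The part of these differences in the KLF values was not tested.

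The genes whose normalised coverage over the 12 libraries was most like that of KLF9 were SCAMP2, PNPLA6 and PRP4K, with Pearson correlations of 0.87, 0.85 and 0.85 over 12 libraries. These are a description, as libraries of 1 group share their treatment and genotype.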

How the data were processed

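H3K27ac was measured by CUT&RUN in 12 libraries of RPMI 8226 cells, 3 in each of 4 groups. Reads were aligned with Bowtie2 2.4.2 to hg38 and peaks called with MACS3 3.0, per the submitters' processing notes. The deposited files were broad peak lists, 1 per library. Peak positions, a unit recorded as other, are 0-based in the deposited files and 1-based here. The deposited score is 10 times the −log10 q-value, in all but a few peaks of each library. The deposited signal column is a ratio (fold enrichment over background), and −log10 p and −log10 q stand beside it in the deposited lists. No read counts were given, so the depth is unknown and no counting interval was computed. Libraries had 48.0 to 66.4 Mb covered by peaks, a median peak width of 943 to 1031 bp and a median fold enrichment of 3.11 to 3.75. Peaks on other sequences (213 to 296 a library) were left out.

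For 19974 coding genes of the RefSeq table, base pairs covered by peaks were summed over the span and 25 kb on each side. The 17155 covered in at least 3 libraries were tested on log2(bp + 500), quantile-normalised, with limma 3.58.1 (trend and robust, group means, 8 residual degrees of freedom) in R 4.3.3. The 57851 consensus regions were tested alike on log2 mean fold enrichment, with bases outside peaks at 1. Benjamini-Hochberg adjustment ran over all genes or all regions, with a threshold of 0.05, and the scripts were tested on simulated data. The 7 contrasts were dexamethasone and knockout singly, averaged, and their interaction.

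Named were all 9 members, all called regions and the 3 of smallest p in a contrast, called genes of 3 lists (other KLF and SP genes, cofactors, glucocorticoid-induced genes), CEBPB, NR3C1 and the 3 genes nearest to KLF9 in pattern. Members and lists were chosen with earlier results of these data known. Alternatives changed the window, peak threshold, offset, normalization, gene filter, measure, samples in the fit, regions' minimum number of libraries and replicate block, and left out each library in turn. The labels did not explain the replicate numbers, so the numbers were not used as pairs. Same-numbered libraries did not deviate together, but that cannot show whether they shared a culture or a day. RefSeq promoters matched 7 of the 9 members by symbol.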

Additional observations from a re-analysis of the deposited data

How the results depend on the processing

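Lists of peaks with no read counts limit every value: a peak just under the threshold counts as 0, and depth could not be modelled. No member was called for dexamethasone or its interaction with genotype in gene windows under any alternative run. For the knockout under DMSO, peaks with −log10 q of at least 2 alone gave 1 called window in place of 0 (KLF10). Under dexamethasone, windows of 100 kb gave 2 (KLF10 and KLF11), these stronger peaks 1 (KLF10), no normalization 1 (KLF7) and no gene filter 1 (KLF7), in place of 0. Averaged over treatments the count of 1 became 0 with windows of 5 kb, 2 with 100 kb (KLF4 and KLF11), 3 with the stronger peaks (KLF6, KLF7 and KLF10), 2 with no normalization (KLF6 and KLF7) and 2 with equal covered length (KLF6 and KLF10). With 1 library left out at a time the count was 0 to 2. In windows of 100 kb, KLF7 was not called (adjusted p = 0.0783 in limma). KLF4, almost without peaks in its 25 kb window, was called there on peaks that lie further out.

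For regions, dexamethasone in SCR cells gave 1 call in place of 0 with regions from at least 2 libraries, and 0 to 1 with 1 library left out. Averaged over genotypes, covered base pairs gave 1 and leaving out a library 0 to 1, the 1 call arising without SCR DMSO library 1. The knockout under DMSO gave 3 calls in place of 7 with the stronger peaks and 3 with covered base pairs. Under dexamethasone it gave 5 in place of 3 with regions from at least 6 libraries, and 2 to 5 with 1 library left out, the 5 without SCR dexamethasone library 2 or SCR DMSO library 3. Averaged, it gave 6 in place of 11 with the stronger peaks and 7 with covered base pairs, and 10 to 12 with 1 library left out.

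Signs turned for KLF11 with dexamethasone in SCR cells (0.019 with the stronger peaks, 0.15 with equal covered length), for KLF6 with windows of 5 kb (-0.078 for the knockout under dexamethasone, -0.064 averaged), and for the interaction at KLF13 region 8 with the stronger peaks (-0.010). The cause was not tested in any of these. With the replicate number as a block, the averaged knockout count of windows was 0 in place of 1 (KLF7, adjusted p = 0.0721 in limma). Regions called under DMSO were then 6 in place of 7. Correlations of deviations between same-numbered libraries were -0.08 to 0.10 over 18 pairs, and -0.10 to 0.11 over 36 pairs of other numbers. These values cannot show whether same-numbered libraries shared a culture or a day, which the labels do not say.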
